A study of Mus musculus with 3 samples.

Results

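The genes described here encode the mitochondrial respiratory chain and ATP synthase. They were taken by array gene name alone: names starting with Nduf, Uqcr, Atp5 or Cox4 to Cox8, and Sdha, Sdhb, Sdhc, Sdhd, Cyc1 and Cycs. No measured value enters this rule. It took 120 of 41174 probes and 85 of 19758 named genes. Of the 85 genes, 36 encode subunits of complex I, 4 of complex II, 8 of complex III, 17 of complex IV and 15 of complex V, and 1 encodes cytochrome c. The remaining 4 are not subunits of the chain: Ndufaf1 and Ndufa12l (now Ndufaf2) are assembly factors of complex I, Cox4nb is now named Emc8, and Atp5s is now Dmac2l. The 13 subunits encoded by mitochondrial DNA found no matching gene name on the array and were not analysed here.

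Cultured aortic cells of Pim1-/- mice were compared with those of wild-type mice, both on the FVB/N background. Pim1 is a serine/threonine kinase, and the knockout is the only difference in genotype that the labels give. Cells of both genotypes were labelled as aortic endothelial cells of female mice of 12 weeks, were grown on gelatine-coated dishes in serum-containing medium and yielded RNA 24 hours after seeding. Each of 3 two-colour oligonucleotide arrays carried knockout RNA in Cy5 and wild-type RNA in Cy3. The 3 arrays were labelled biological replicates, with no dye swap, so a dye effect and the genotype cannot be told apart, and the labels do not say whether RNA of several mice or cultures was pooled. All ratios below are knockout over wild type on the log2 scale, so 1 is a doubling and 0 is no difference. Errors are SDs over the 3 arrays unless given as an interval, and the small number of arrays limits the precision.

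Oxidative phosphorylation runs in the inner mitochondrial membrane. Complex I takes electrons from NADH and complex II takes them from succinate; both pass them through coenzyme Q to complex III, and cytochrome c carries them on to complex IV, which reduces oxygen to water. Complexes I, III and IV pump protons, and complex V, the ATP synthase, lets the protons back in to make ATP. Most subunits are encoded in the nucleus. Endothelial cells are known for drawing much of their ATP from glycolysis.

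The targeted gene was lower in the knockout channel. Pim1 read -0.97, -1.16 and -0.99 on the 3 arrays (mean -1.04 ± 0.10, limma adjusted p = 0.00297), and its probe was above background on every array in either channel. Genes of the sex chromosomes did not match the labels. Xist was well above background on no array in the knockout channel (log2 ratio -7.40), and 3 genes of the Y chromosome, Kdm5d, Ddx3y and Eif2s3y, were above it on no array in the wild-type channel (2.24, 3.63 and 4.92), so sex and genotype cannot be told apart in any result below. Of 20 markers of endothelial cells, Pecam1, Cdh5, Tie1, Erg and Sox17 were above background on no array in either channel. Another 8 of the 20 passed the background filter and were tested. Detection on every array held for 6 of the 20 in knockout RNA and for 7 in wild-type RNA. Array 1 stood apart from the other arrays. Over the probes that passed the background filter, its log2 ratios correlated at r = 0.681 and 0.699 with those of arrays 2 and 3. Arrays 2 and 3 correlated with each other at 0.905. In RNA of whole cultures, fewer cells of a type and less RNA per cell cannot be told apart.

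The respiratory chain changed little between the genotypes. Of 82 tested genes, 4 rose and 4 fell in the knockout (limma adjusted p under 0.05), which is 9.76%, beside 20.1% of all 13482 tested genes (2714 genes). By direction, 8.67% of all genes rose and 11.5% fell. The gap was narrower by probe, where 14 of 114 tested chain probes were called (7 higher, 7 lower), beside 4300 of all 25080 tested probes (17.1%). By its brightest probe no respiratory chain gene differed 2-fold, whereas 936 of all tested genes (6.94%) did, and 1 gene of the chain, Uqcrh, differed 1.5-fold against 2162 of all (16%). At an unadjusted p under 0.05 the counts were 23 of 82 and 4853 of 13482.

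The chain genes were measured with bright probes. Both channels of all arrays were above background for 81 of them, and among the 1728 genes at least as bright as the chain's lower quartile 17% were called and 3.41% differed 2-fold. The 95% interval of the ratio lay within a 2-fold difference in both directions for 81 of the 82 genes (98.8%, against 85.1% of all genes). It lay within 1.5-fold for 57 (69.5%, against 56.9% of all). The exception at 2-fold was Uqcrh, whose interval reached 1.05. The 3 untested genes, Cox4i2, Cox8b and Cox8c, were above background on no array in either channel.

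**Figure D1:**
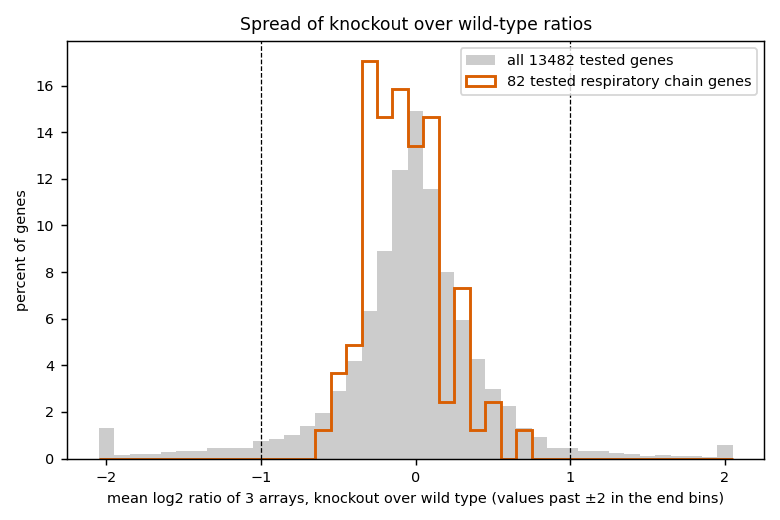
Percent of genes (vertical axis) by mean log2 ratio of 3 arrays, knockout over wild type (horizontal axis, values past 2 in either direction gathered in the end bins), for all 13482 tested genes in grey and the 82 tested respiratory chain genes in orange; dashed lines mark a 2-fold difference. The chain genes lie between -0.56 and 0.70, inside both dashed lines, while all genes reach past them on both sides.

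As a group the chain genes sat slightly below 0, an offset whose sign depended on the normalisation. Their median log2 ratio was -0.09, with 55 genes below 0 and 27 above, and the middle 50% ran from -0.26 to 0.07, while the median of all genes was -0.02. By array the chain's median was -0.13, 0.03 and -0.19, so array 2 had the opposite sign. When each array was centred on its median in place of the intensity-dependent loess fit, the median of the chain became 0.16 and that of all genes 0.08, and 16 of the 82 chain genes, all of them among the 55, were below 0. Of the 82 genes, 41 had 1 sign on all 3 arrays.

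**Figure D2:**
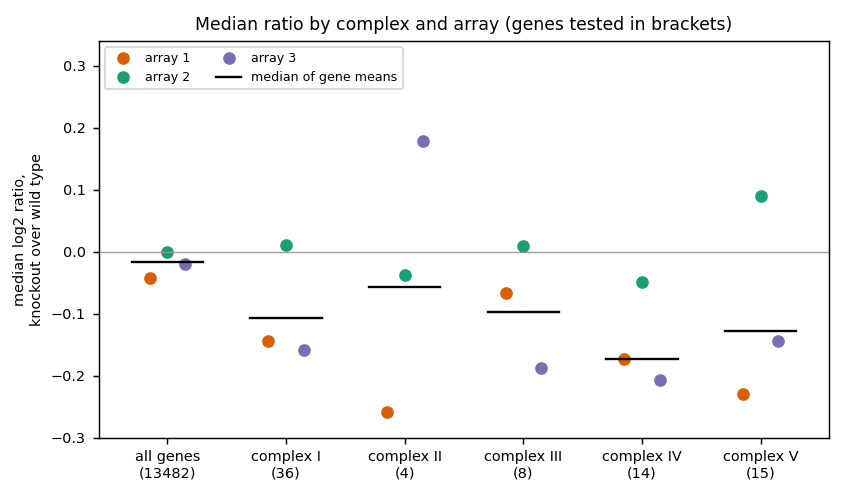
Median log2 ratio of the tested genes (vertical axis) for all genes and for complexes I to V (horizontal axis, genes tested in brackets); points are single arrays and bars the median of the genes' 3-array means. The bars of the 5 complexes lie between -0.17 and -0.06, below that of all genes at -0.02, and under median centring the medians of all 5 were above 0; that of complex II was also above 0 without array 1, with array weights and with the mean of all probes.

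The 8 calls lay in complexes I, II and III. That is 11.1% of 36 genes in complex I, 25% of 4 in complex II and 37.5% of 8 in complex III. The share over all tested genes was 20.1%, and the differences between these shares were not tested. The called genes were Ndufa1, Ndufb4, Ndufb7 and Ndufc2 of complex I, Sdhb of complex II, and Uqcrc1, Uqcrc2 and Uqcrh of complex III. None of the tested genes of complex IV (14 genes) or complex V (15 genes) was called. Whether the 8 passed depended on the arrays used, as it did for genes at large. Without array 2 and without array 3 none of the 8 passed, and 4.96% and 4.7% of all tested genes did. Without array 1, 21 chain genes passed, including all 8, and 41.6% of all tested genes. With the scanner software's own log ratio only the fall of Uqcrc1 passed. The direction of each of the 8 was the same under all 17 alternative settings that gave it a value. Several of these settings could not change it, since they left the ratios as they were. Nor could leaving out or weighting arrays, because each of the 8 had 1 sign on all 3 arrays. Channel values of these 8 genes are given below. The genes were picked by their ratios on the same arrays, so channels that do not overlap are no separate support. The share of all genes without such overlap is not given.

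By their brightest probes, complex III genes held both the largest rise and the largest fall of the chain. Uqcrc1 and Uqcrc2 encode the 2 core proteins that form the matrix-facing base of the complex. Uqcrc1 read 14.64, 14.61 and 14.68 (log2 intensity) in the knockout channel of arrays 1, 2 and 3 and 15.19, 15.13 and 15.28 in the wild-type channel. Every knockout value lay below every wild-type value, and the gene fell by 0.56 (SD 0.04, adjusted p = 0.0156), 1.47-fold lower; a further probe read -0.53 (adjusted p = 0.0268). Uqcrc2 read 14.06, 14.08 and 13.98 in the knockout and 13.51, 13.37 and 13.60 in the wild type, again without overlap. It rose by 0.54 (SD 0.16, adjusted p = 0.026), 1.46-fold. Within arrays the ratio of Uqcrc2 exceeded that of Uqcrc1 by 1.10, 1.23 and 0.98, a gap picked out after the values were seen and given with no test.

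Uqcrh encodes the acidic hinge protein through which cytochrome c1 meets cytochrome c. It read 16.01, 16.23 and 16.03 in the knockout channel and 15.47, 15.18 and 15.52 in the wild-type channel. The channels did not overlap, and array 2 had the widest gap. The gene rose by 0.70 (SD 0.30, adjusted p = 0.0273), 1.62-fold, the largest ratio among the brightest probes of the chain genes, and a further probe read 0.63 (SD 0.37, adjusted p = 0.0498).

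The other 5 genes of complex III passed no threshold. Uqcr (now Uqcr11), a small accessory subunit, came nearest, at -0.40, -0.22 and -0.45 (adjusted p = 0.0646). Uqcrfs1, the Rieske iron-sulfur protein, averaged -0.21 ± 0.15 and Cyc1, which encodes cytochrome c1, 0.15 ± 0.33, the latter with opposite signs on arrays 1 and 3. Uqcrb and Uqcrq, which encode small subunits, averaged -0.08 and -0.12.

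Cycs, the somatic cytochrome c, could not be placed. Its brightest probe read 0.65 on array 1 and -0.33 and -0.30 on arrays 2 and 3, a mean of 0.01 ± 0.56 (adjusted p = 0.988). Without array 1 the mean was -0.32 and passed (adjusted p = 0.0301). Its 2 further probes averaged -0.29 and -0.34 and showed the same split, with array 1 at 0.05 and 0.03.

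**Figure D3:**
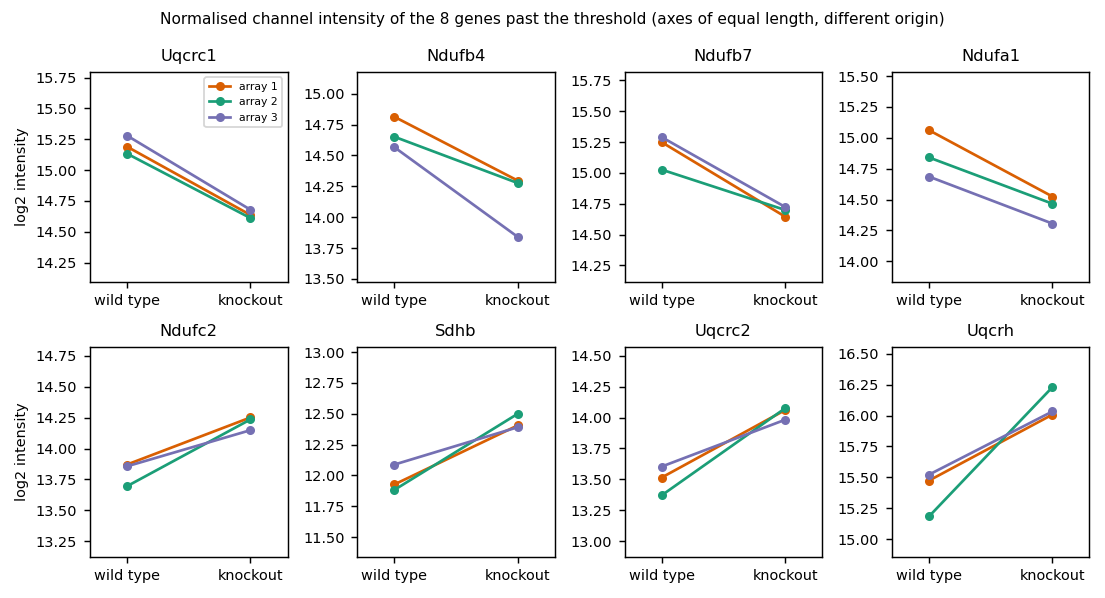
Normalised log2 channel intensity (vertical axes, all of 1 length) in the wild-type and knockout channels of each array (lines) for the 8 genes with an adjusted p under 0.05. All 3 lines fall for Uqcrc1, Ndufb4, Ndufb7 and Ndufa1 and all 3 rise for Ndufc2, Sdhb, Uqcrc2 and Uqcrh; under median centring the 4 falls no longer passed.

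In complex I, 1 of 36 genes rose and 3 fell (11.1%, beside 20.1% of all tested genes). These 4 were accessory subunits, as were 29 of the 36 genes. Ndufb4, an accessory subunit of the membrane arm, read 14.30, 14.28 and 13.84 in the knockout and 14.81, 14.65 and 14.57 in the wild type. It fell by 0.54 (SD 0.18, adjusted p = 0.0285), 1.45-fold lower. Ndufb7, a membrane-arm subunit of the intermembrane-space side, read 14.65, 14.70 and 14.72 against 15.25, 15.03 and 15.29. It fell by 0.50 (SD 0.15, adjusted p = 0.0309). Ndufa1, a small membrane subunit encoded on the X chromosome, read 14.52, 14.47 and 14.31 against 15.06, 14.84 and 14.69. It fell by 0.43 (SD 0.09, adjusted p = 0.0362), and a further probe averaged -0.34 (adjusted p = 0.082). In all 3 genes the knockout values lay wholly below the wild-type values.

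Ndufc2 was the only member of complex I that rose. This accessory subunit of the membrane arm read 14.25, 14.24 and 14.15 in the knockout and 13.87, 13.70 and 13.86 in the wild type. The channels did not overlap, and the ratio was 0.40 ± 0.13 (adjusted p = 0.0484). It lay closest to the threshold of the 8 and passed under 8 of 17 alternative settings. Its partner by name, Ndufc1, averaged 0.32 ± 0.28 (adjusted p = 0.173), with array 1 at -0.0049.

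The core subunits of complex I that mitochondrial DNA encodes were not analysed. The 7 core subunits encoded in the nucleus, which carry the flavin and the iron-sulfur clusters or line the path to coenzyme Q, stayed close to 0. Their median ratio was -0.06, none was called, and Ndufs3, an iron-sulfur protein subunit by name, averaged -0.12 ± 0.10. Ndufv1, which binds NADH and the flavin, averaged -0.06 ± 0.11, and Ndufs1, which holds several iron-sulfur clusters, -0.11 ± 0.11. The 29 accessory subunits spread more widely, from -0.54 to 0.40 with a median of -0.17. Several of them lay just outside the threshold: Ndufa5 at -0.33 (adjusted p = 0.0738), Ndufa4 at -0.34 (adjusted p = 0.0767) and Ndufa9 at 0.33 (adjusted p = 0.0827), each with 1 sign on all arrays. Ndufa4 is counted with complex I here by its name and has since been placed in complex IV.

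In complex II, Sdhb was the 1 gene of 4 that passed. Sdhb, the iron-sulfur subunit of succinate dehydrogenase, read 12.41, 12.50 and 12.39 in the knockout and 11.93, 11.88 and 12.09 in the wild type, with no overlap. It rose by 0.47 (SD 0.16, adjusted p = 0.0382), 1.38-fold. Sdhd, a membrane anchor, had the opposite sign on every array, at -0.34, -0.32 and -0.28 (adjusted p = 0.0727). Sdha, the flavoprotein subunit, averaged -0.05 ± 0.18 and Sdhc, the other anchor, -0.07 ± 0.34, both with mixed signs.

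**Figure D4:**
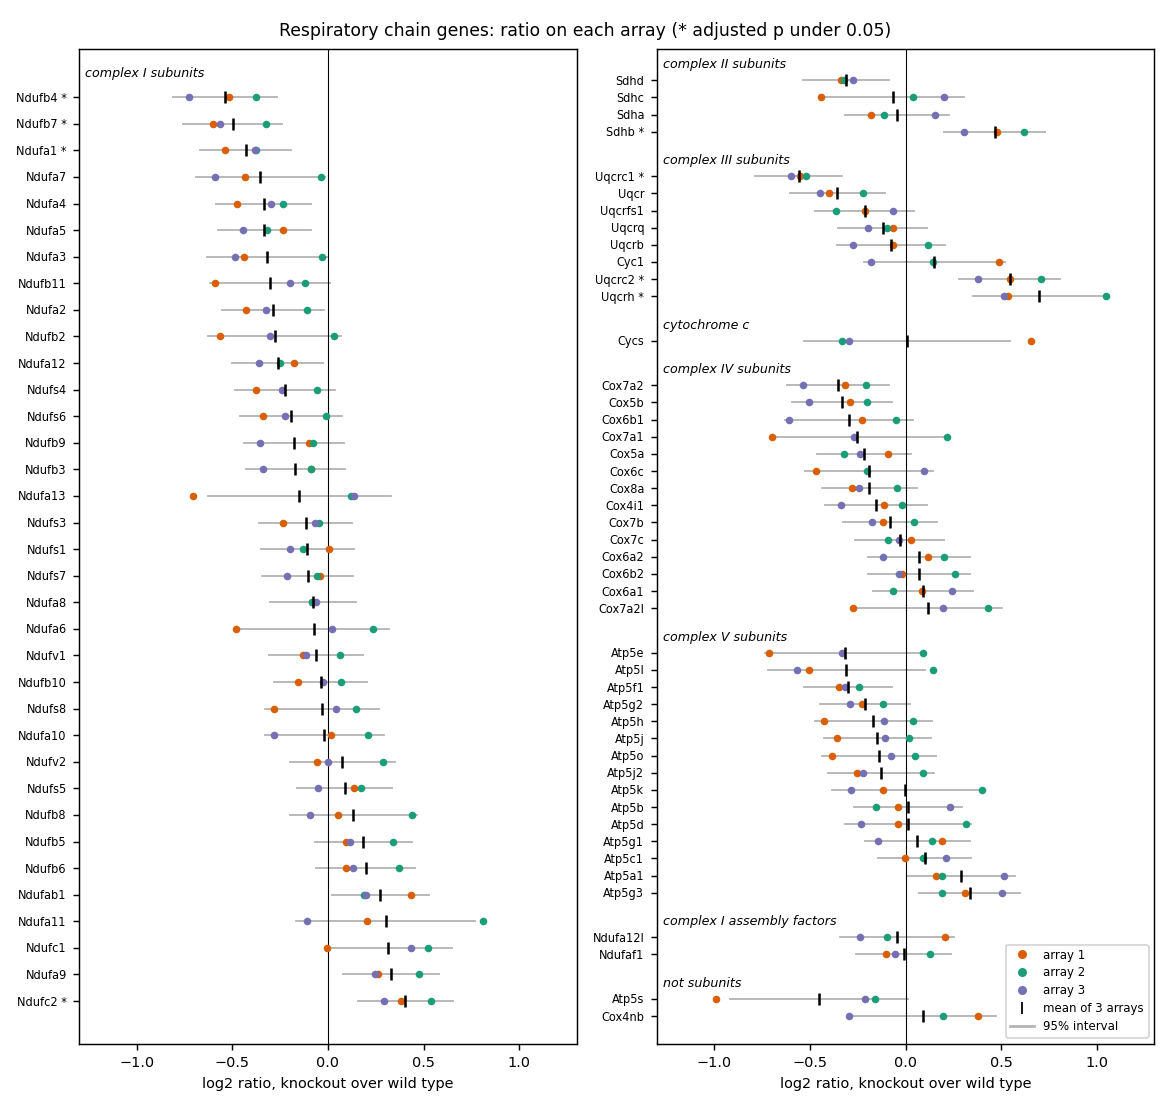
Log2 ratio of knockout over wild type (horizontal axes) for 81 of the 82 tested genes, grouped by complex: coloured points are the 3 arrays, black ticks their mean and grey bars the 95% interval; an asterisk marks an adjusted p under 0.05. The 8 marked genes lie at the ends of complexes I, II and III, and no gene of complexes IV and V is marked.

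Complex IV showed no called change. Its 14 tested genes ran from -0.35 to 0.12, with a median of -0.17 (by array -0.17, -0.05 and -0.21), which became 0.12 under median centring. Cox5b and Cox7a2 came nearest to the threshold, at -0.33 (adjusted p = 0.0894) and -0.35 (adjusted p = 0.0817), both below 0 on all arrays. Cox5a, which like Cox5b is a subunit of the matrix side, averaged -0.22 ± 0.12 (adjusted p = 0.196).

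Several complex IV subunits come as isoforms of different tissues, and no isoform passed the test. Cox4i1, the ubiquitous form of subunit 4, averaged -0.16 ± 0.16, while Cox4i2, known from lung and from cells in low oxygen, was not well above background in either channel. Cox6a1 averaged 0.09 ± 0.15 and its heart and muscle form Cox6a2 0.07 ± 0.16. Cox6b1 averaged -0.30 ± 0.28 and its testis form Cox6b2 0.07 ± 0.16. The probes of Cox6a2, Cox6b2 and Cox7a1 were dim, at mean log2 intensities of 6.46, 7.37 and 7.75, against 17.28 for Cox6a1. Cox6a2 was above background on 2 of 3 arrays in the knockout channel. The background correction pulls ratios of dim probes towards 0, so a small ratio of these forms says little. Cox7a1, the heart and muscle form of subunit 7a, read -0.70, 0.21 and -0.27, and the broadly expressed Cox7a2 read -0.32, -0.21 and -0.54, so the forms could not be separated beyond their spread. Cox7a2l, known for its part in joining complexes into supercomplexes, read -0.27, 0.43 and 0.20. Cox7b averaged -0.08 ± 0.11 and Cox8a -0.19 ± 0.13, and their tissue-restricted relatives Cox7b2, Cox8b and Cox8c were not well above background, nor was the testis cytochrome c, Cyct.

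Complex V likewise held no called gene among 15, with a range from -0.32 to 0.33 and a median of -0.13 (by array -0.23, 0.09 and -0.14; 0.21 under median centring). The 5 subunits of the catalytic F1 part had a median of 0.01, and Atp5b, the catalytic beta subunit, averaged 0.01 ± 0.20. The 10 subunits of the membrane and stalk part had a median of -0.14. Among them the 3 genes for the c subunit of the proton-driven ring, which give 1 and the same mature protein, differed in sign: Atp5g1 averaged 0.06 ± 0.18, Atp5g2 -0.21 ± 0.09 and Atp5g3 0.33 ± 0.16 (adjusted p = 0.755, 0.191 and 0.0906). Atp5g3 passed under median centring (0.70, adjusted p = 0.0449). Atp5f1 (now Atp5pb), the b subunit of the stalk, read -0.35, -0.24 and -0.32 (adjusted p = 0.082). Atp5e, the epsilon subunit, read -0.71, 0.09 and -0.34.

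Probes of the same gene were compared with a limit of 0.5, which is wide beside the ratios of the chain genes (median size 0.18). Among 25 genes with more than 1 tested probe there were 32 further probes, of which 29 lay within 0.5 of the brightest probe, 22 shared its sign and 6 were called. The 3 beyond 0.5 belonged to Ndufab1, Cox4nb and Atp5a1. For Ndufab1, the mitochondrial acyl carrier protein that is also a complex I subunit, the brightest probe read 0.43, 0.19 and 0.20 (adjusted p = 0.131), while a dimmer probe read 1.12, 1.32 and 1.14 and passed (adjusted p = 0.00196). For Atp5a1, the alpha subunit of the ATP synthase, the brightest probe averaged 0.29 and the other -0.34 (adjusted p = 0.148 and 0.0625).

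Regulators in nuclear respiratory gene promoters include NRF1, the ETS factor GABP, YY1 and the estrogen-related receptors (ERR), which act with the coactivators Ppargc1a and Ppargc1b. Promoter windows of 300 bases, from 250 before to 50 after the start of the gene (RefSeq, GRCm38.p6), were given for 69 of the 85 genes. The windows were searched on both strands for GCGCA and GCGC with any 1 base between them (NRF1, letters that nearly mirror themselves on the other strand), CCGGAAG (ETS), AAGATGGC (YY1) and AAGGTCA (ERR). NRF1 letters were found in 24.6% of the 69 and in 5.19% of the 27025 genes with such a window (7.17% of the coding genes among them), ETS letters in 24.6% and 9.93%, YY1 letters in 14.5% and 3.19%, and ERR letters in 11.6% and 5.38%. A match is a description of the letters and not a site. At least 1 of the 4 motifs was found in 39 of the 69 (56.5%), in 21.1% of all genes and in 24.9% of coding genes, and in 5 of the 7 called genes with a window.

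The 250 bases before the start are shown for 4 called genes, 3 that fell and 1 that rose, with matches in capitals, 5′ to 3′ on the gene's strand; the coordinates are those of GRCm38.p6 and not of the array files. Uqcrc1 (chr9:108936398-108936647, plus strand) has no match before the start and has NRF1 letters 6 and 31 bases into the gene. Ndufb4 (chr16:37654369-37654618, minus strand) has NRF1 letters beginning at -191, -79 and -22 and ERR letters at -55, counted from the start. Ndufb7 (chr8:83566508-83566757, plus strand) has ETS letters at -20. Uqcrh (chr4:116075071-116075320, minus strand) has ETS letters at -10 on the opposite strand, so they read CTTCCGG. Of the 4 genes shown, Ndufb7, which fell, and Uqcrh, which rose, carried ETS letters close to the start. With 1 gene in each direction, this does not relate the letters to the direction of change.
Uqcrc1: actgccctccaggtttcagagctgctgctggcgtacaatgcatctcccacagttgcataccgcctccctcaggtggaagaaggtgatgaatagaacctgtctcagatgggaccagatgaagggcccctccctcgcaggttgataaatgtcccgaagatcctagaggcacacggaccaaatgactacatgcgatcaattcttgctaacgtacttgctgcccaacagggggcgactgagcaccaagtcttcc
Ndufb4: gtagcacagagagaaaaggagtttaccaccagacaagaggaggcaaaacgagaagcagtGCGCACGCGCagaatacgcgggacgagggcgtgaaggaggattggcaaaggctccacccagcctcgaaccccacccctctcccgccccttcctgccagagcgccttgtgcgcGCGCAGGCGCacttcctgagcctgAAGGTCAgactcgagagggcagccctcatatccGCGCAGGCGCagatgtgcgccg
Ndufb7: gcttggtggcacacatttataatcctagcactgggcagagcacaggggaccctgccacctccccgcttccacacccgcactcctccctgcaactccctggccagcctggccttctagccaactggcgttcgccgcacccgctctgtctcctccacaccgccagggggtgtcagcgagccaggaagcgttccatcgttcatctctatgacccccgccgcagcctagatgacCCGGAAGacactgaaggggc
Uqcrh: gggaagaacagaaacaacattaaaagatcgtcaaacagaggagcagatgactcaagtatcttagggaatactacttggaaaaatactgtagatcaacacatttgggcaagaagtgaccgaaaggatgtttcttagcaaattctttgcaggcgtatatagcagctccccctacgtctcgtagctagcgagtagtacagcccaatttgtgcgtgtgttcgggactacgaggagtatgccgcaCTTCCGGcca

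Ndufa1 is 1 of 3 chain genes on the X chromosome, where the sexes of the channels differ. Ndufb11 averaged -0.30 ± 0.25 (adjusted p = 0.167) and Cox7b -0.08 ± 0.11, so neither of the others passed. Of all 442 tested X-linked genes 87 were called (19.7%), 21 higher and 66 lower, with a median of -0.07. That is 4.75% higher and 14.9% lower, beside 8.67% and 11.5% of all genes, a difference in split that was not tested. The part of sex in the fall of Ndufa1 cannot be told apart from genotype. On chromosome 17, within 20 Mb of the Pim1 probe (29220807 to 29220866, mm8), lie Ndufa7 (4.22 Mb away) and Ndufb10 (4.77 Mb away), at -0.35 ± 0.29 and -0.04 ± 0.11. Neither passed (adjusted p = 0.14 and 0.835).

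Some subunits are listed on the array under clone or older names, outside the choice by name. Atp5md averaged -0.25 ± 0.33, Atp5mpl -0.31 ± 0.13 (adjusted p = 0.095) and Uqcr10 -0.23 ± 0.18. Ndufv3 had 3 probes at 0.44 ± 0.59, -0.22 ± 0.40 and 0.28 ± 0.54. None of these probes was called, though each ratio was larger in size than the median size of the chain genes (0.18).

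Assembly factors put the subunits together. Among 14 tested assembly factors of complex I none was called, with 2 at an unadjusted p under 0.05 and a median of -0.007. Among 36 of complexes II to V, 4 rose and 1 fell (13.9%). Coa7, a factor for complex IV, rose by 0.53 (SD 0.21, adjusted p = 0.0353), Taco1, which activates translation of a mitochondrially encoded complex IV subunit, by 0.47 (SD 0.06, adjusted p = 0.0251), and Cox16, also a complex IV factor, by 0.40 (SD 0.07, adjusted p = 0.0411). The other calls were Atpaf1, an ATP synthase factor (0.38), and Coa6, a complex IV factor (-0.39), both named after their values were seen.

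Ratios beyond the range of the chain genes occurred among regulators and in fuel supply. Ppargc1a, the coactivator of mitochondrial biogenesis, read -0.91, -0.99 and -0.77 and fell by 0.89 (SD 0.11, adjusted p = 0.0048). Its relative Ppargc1b rose by 0.50 (SD 0.20, adjusted p = 0.038) and Tfb1m, which methylates mitochondrial ribosomal RNA, by 0.55 (SD 0.18, adjusted p = 0.0268). These were the 3 calls among 23 regulators (13%, median 0.07). Nrf1 itself averaged 0.35 ± 0.05 (adjusted p = 0.0543), Gabpa -0.17 ± 0.13, Esrra 0.09 ± 0.16 and Tfam 0.30 ± 0.48.

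Of 25 genes of the citric acid cycle and pyruvate entry, 1 rose and 2 fell (median -0.01). Pdk4, the kinase that shuts down pyruvate dehydrogenase, read -4.44, -3.48 and -3.60 and fell by 3.84 (SD 0.52, adjusted p = 0.000556), far outside the range of any chain gene. Mpc2, a subunit of the mitochondrial pyruvate carrier, fell by 0.55 (SD 0.27, adjusted p = 0.042), and Pdha1, the alpha subunit of pyruvate dehydrogenase, rose by 0.42 (SD 0.15, adjusted p = 0.0478).

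Around the chain itself, Atpif1, the inhibitor protein of the ATP synthase, rose by 0.69 (SD 0.31, adjusted p = 0.0286), the only call among 11 carriers, porins and related genes. Among 18 genes that feed electrons to or build coenzyme Q, Sqor, which passes electrons from sulfide to coenzyme Q, read 0.57, 1.39 and 1.23 and rose by 1.07 (SD 0.44, adjusted p = 0.017). Coq6, a hydroxylase of coenzyme Q synthesis, read -0.78, -0.54 and -0.82 and fell by 0.71 (SD 0.15, adjusted p = 0.0118). Of 78 mitochondrial ribosomal proteins 3 rose and 3 fell (7.69%, median 0.06). The largest ratios there were those of Mrpl17 (0.80), Mrps6 (-0.74) and Mrps14 (-0.66). Of 37 genes of protein import and inner membrane organisation, only Timm10b, an import chaperone of the intermembrane space, was called (0.50, adjusted p = 0.026).

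Markers of other cell types differed between the channels, as a median by over 2-fold for fibroblast and mesothelial genes. Of 15 tested fibroblast markers 11 rose and 1 fell (median 1.37), with a summed intensity of 636417 to 660429 in the knockout channel and 550736 to 592897 in the wild-type channel. Mesothelial and epithelial genes fell in 8 of 11 cases, and 0 rose (median -1.41), with sums of 11384 to 14369 against 81003 to 101039. Of 10 smooth muscle and pericyte markers 1 rose and 3 fell (sums 34648 to 41325 against 42346 to 60324), and of 8 endothelial markers 2 rose and 1 fell (9164 to 12107 against 5563 to 6150). Of 6 macrophage and leukocyte markers none rose and 2 fell (2841 to 3210 against 4165 to 5454). Among 6 adipocyte markers 2 rose and 3 fell (2483 to 2721 against 7146 to 9797), and among 7 striated muscle markers 1 fell (3853 to 3935 against 3365 to 8738). Defining markers above background on no array in either channel were Fap, Rgs5, Epcam, Adgre1, Itgam, Tyrobp, C1qa, C1qc, Adipoq, Lep, Plin1, Cidec, Ucp1, Cfd, Ckm, Myh6, Mb, Myl2 and Ryr2. The part of cell composition in the ratios of the chain genes was not tested.

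The share of called genes was lower in the chain than over all genes under each of the 17 alternative settings with a gene-wise fit. With array weights it was 24.4% against 32.1%, and without array 1 it was 25.6% against 41.6%. With no filter on dim probes the shares came closest among the settings with 3 unweighted arrays, at 10.6% against 12.6%. Under median centring 6 chain genes rose and none fell, 4 of them among the 8 calls, and the falls of Uqcrc1 (-0.24, adjusted p = 0.358), Ndufb4 (-0.25, 0.324), Ndufb7 (-0.18, 0.475) and Ndufa1 (-0.13, 0.663) did not pass. Uqcrh then reached 1.06, past 2-fold.

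**Figure D5:**
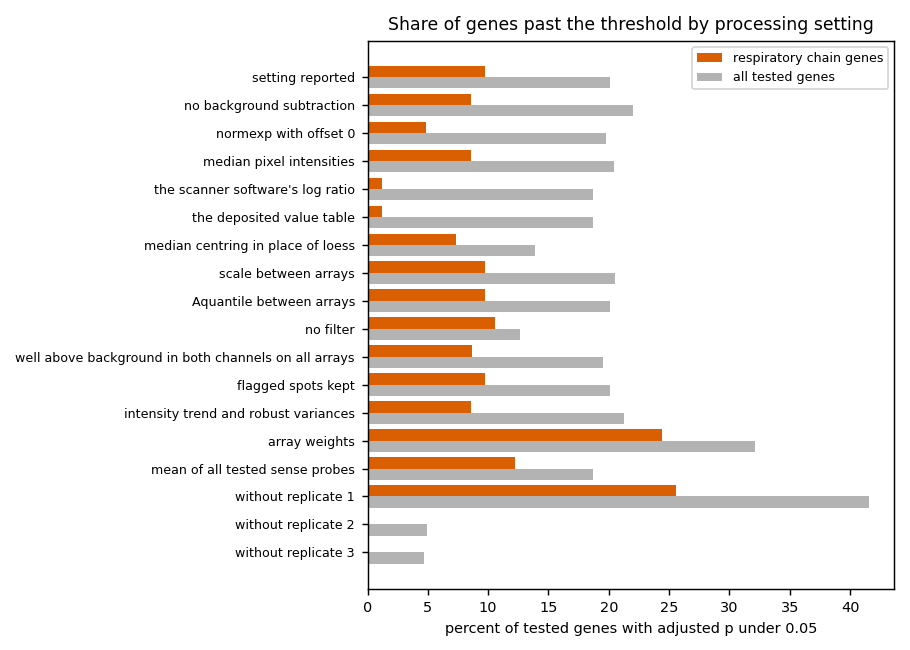
Percent of tested genes with an adjusted p under 0.05 (horizontal axis) for the respiratory chain genes (orange) and all genes (grey) under each processing setting (vertical axis). The orange bar is shorter than the grey bar in every row, from 9.76% against 20.1% in the reported setting, and is at 0 without replicate 2 and without replicate 3.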

How the data were processed

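Knockout (Cy5) and wild-type (Cy3) cRNA, amplified from total RNA, shared each of 3 arrays of 60-mer probes, per the labels. The deposited files hold mean pixel intensity and median background intensity per spot (45018 spots) from Agilent Feature Extraction 9.5.3.1, per the submitters' processing notes, and the software's log10 ratio, per the file headers; the authors' deposited value table equals that log10 ratio (largest difference 0).

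Background was corrected with normexp at an offset of 50, and this offset pulls ratios of dim probes towards 0. Ratios were then normalised within arrays by loess. Control spots (1639) and outlier-flagged spots (121, 140 and 136) had weight 0. The 25080 probes tested were those the scanner marked as above background in either channel on 2 or more arrays. The mean log2 ratio was tested against 0 with limma 3.58.1 (lmFit, eBayes, prior degrees of freedom 3.46) in R 4.3.3, and p-values were adjusted by Benjamini and Hochberg's method across every probe tested; those under 0.05 were called (17.1% of probes). These p-values reflect only how far the 3 arrays vary, which may be technical. A gene was its brightest tested sense probe, named through RefSeq (GRCm38.p6, names only) or, for chain genes, by the array's name; all 85 chain genes matched RefSeq. The code was also run on simulated data, in which most of the smaller changes were not called, so a gene not called may still differ.

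Named were Pim1, called chain genes, isoforms, chain genes on X or within 20 Mb of Pim1, and up to 3 called genes of each neighbouring list; other chain genes are background to their complex. A further gene is counted but its own values are not reported here. The name rule uses no values, but the gene families and lists were chosen with earlier results of these data known. Alternatives are given in the closing section.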

Additional observations from a re-analysis of the deposited data

How the results depend on the processing

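Median centring in place of loess made the medians positive: 0.16 for the chain, 0.14 for complex I, 0.20 for complex III, 0.12 for complex IV and 0.21 for complex V, with 0 chain genes called lower; the cause was not tested. With no filter on dim probes the median of complex IV was -0.083, from 3 more genes. With normexp at offset 0, 2 chain genes were called higher and 2 lower; with the log ratio of the scanner's software, and with the deposited value table that equals it, 0 higher and 1 lower; with array weights 8 higher and 12 lower (4331 of all genes). At an adjusted p under 0.01, 961 genes were called and 0 chain genes in either direction. Leaving out 1 array at a time gave 633 to 5608 calls over all genes, 0 to 9 chain genes higher and 0 to 12 lower. It gave medians of -0.18 to -0.064 for complex IV, of -0.14 to -0.06 for the chain, of -0.14 to -0.066 for complex I, of -0.17 to 0.071 for complex II, of -0.14 to -0.029 for complex III and of -0.23 to -0.014 for complex V. With the mean of all sense probes the medians of complexes II, III and V were 0.013, -0.013 and -0.029, and with array weights those of complexes II and V were 0.04 and -0.068. With 1 array left out, Cycs ranged from -0.32 without replicate 1 (adjusted p = 0.0301) to 0.18 without replicate 2. With loess, array 1 alone was positive. Under median centring Cycs was at 0.32. Counts for all other settings stayed within 1.5 times those reported. All 18 alternatives chosen were run. No paired analysis was possible because the design has 1 group of 3 ratios, and each array already pairs knockout with wild-type RNA.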

Other observations

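Ndufab1, named after its values were seen, had 4 probes that did not give 1 value. The brightest read 0.43, 0.19 and 0.20 on the 3 arrays, the dimmer ones 1.12, 1.32 and 1.14 (adjusted p = 0.00196) and 0.63, 0.57 and 0.51 (adjusted p = 0.0153), and 1 was not well above background. All 3 measured probes were above 0 on every array, so the size of its difference, rather than its direction, depended on the probe. Dim second probes also passed for Ndufb2 (-0.72, adjusted p = 0.0156, against -0.28 for the brightest) and Cox4nb (-0.65, adjusted p = 0.0159, against 0.09). Of 3 probes for the complex I assembly factor Ndufaf4, 1 was called (-0.41, adjusted p = 0.0378), while the others read 0.30 and 0.50 on array 1 and between -0.94 and -0.56 on arrays 2 and 3.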
